A study of Mus musculus with 6 samples.

Results

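Expression of 9 globin and erythroid genes was examined in cells labelled as AE9a leukemia from 2 marrow regions. The genes were taken by name from the 54532 genes of the count table: the adult globins Hba-a1, Hba-a2, Hbb-bs and Hbb-bt, the heme enzyme Alas2, the anion exchanger Slc4a1, the transcription factor Klf1, the erythropoietin receptor Epor and the transferrin receptor Tfrc. All 9 had a row, and all 9 were among the 13352 genes whose counts were high enough to be tested. The cells came from C57BL/6 mice of the third transplant generation of a leukemia made with AE9a, a shortened splice form of the AML1-ETO fusion protein, carried with GFP by a retrovirus into c-Kit+ marrow progenitors. Central bone marrow (CBM, 3 libraries) was flushed from femurs and tibias. Endosteal bone marrow (EBM, 3 libraries) was then released from the flushed bones with collagenase I, so the region and the digestion cannot be told apart. The sources used here name neither the sorting gate of the sequenced cells nor a step of red cell lysis, and they do not say whether the 3 libraries of a region are separate mice, so p-values measure only the spread between these libraries.

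Red cells form in the marrow from progenitors that pass through erythroblast stages under erythropoietin, which acts through its receptor Epor. The factors GATA1 and KLF1 switch on the late program: alpha and beta globin chains, heme made from a first step by ALAS2, and the membrane protein band 3 (Slc4a1), which is abundant on mature red cells. TFRC takes up iron-loaded transferrin and is used by dividing cells of many kinds, most heavily by erythroblasts.

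The label was checked against markers. Among 12 genes of leukemic and progenitor cells, the stem cell factor receptor Kit (196 to 239 CPM, counts scaled to library size with TMM factors), Myb (268 to 352 CPM) and Runx1 (330 to 722 CPM) were present in every library, and Runx1t1, the mouse gene of the fusion partner, stood at 20.5 to 41.0 CPM. Ptprc, which encodes the pan-leukocyte antigen CD45, was at 0.0992 to 3.58 CPM, Flt3 at 0.0552 to 1.03 CPM, Cd33 at 0.0496 to 1.45 CPM and Csf3r at 0.0992 to 2.58 CPM, where 3 counts, taken as the floor, correspond to 0.149 to 0.193 CPM. The progenitor genes Meis1 and Sox4 reached at most 0.612 and 0.263 CPM, and Cd34 ran from 1.16 to 16.4 CPM. The low Ptprc thus goes against the label, whereas Kit, Myb, Runx1 and Adgrg1 (488 to 610 CPM) do not. The paper describes the leukemia as c-Kit-positive and without markers of myeloid or lymphoid differentiation. Low Cd33 and Csf3r match that description. The mast cell and basophil genes Ms4a2 (652 to 1051 CPM) and Il1rl1 (762 to 1301 CPM), of a myeloid lineage, do not. Mcpt8 and Tpsb2, also mast cell and basophil genes, stayed at no more than 1.21 and 0.228 CPM. The identity of the sequenced cells remains in doubt. The label is used below as a name only. The libraries held 16436526 to 19462964 counts on genes. Gata1, the master factor of red cell formation, was at 202 to 292 CPM. CBM2 and EBM3 stood apart as the highest in most erythroid genes, and CBM2 and EBM2 as the highest in granulocyte markers.

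The promoters of 4 members are shown because they differ in the words that erythroid factors and the basal machinery read. Of the 9 genes, 8 had a window in the RefSeq table for GRCm38.p6 that runs from 250 bases before the start to 50 after it. Each sequence below holds the 250 bases before the start, 5′ to 3′ on the strand of the gene, with motif words in capitals. Words were searched on both strands. The GATA word was taken as AGATAA, with its first letter changed as TGATAA, with its last letter changed as AGATAG or with both changed as TGATAG. Beside it stood CACCC, which KLF1 binds, the CCAAT box and, as a TATA box, ATATAA.
Hba-a1, chr11:32283422-32283671, plus strand: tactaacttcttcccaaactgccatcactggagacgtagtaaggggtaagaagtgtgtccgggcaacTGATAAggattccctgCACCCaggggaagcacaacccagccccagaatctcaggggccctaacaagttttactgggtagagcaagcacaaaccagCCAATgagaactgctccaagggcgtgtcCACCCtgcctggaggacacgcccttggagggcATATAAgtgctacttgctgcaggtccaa
Hbb-bs, chr7:103827929-103828178, minus strand: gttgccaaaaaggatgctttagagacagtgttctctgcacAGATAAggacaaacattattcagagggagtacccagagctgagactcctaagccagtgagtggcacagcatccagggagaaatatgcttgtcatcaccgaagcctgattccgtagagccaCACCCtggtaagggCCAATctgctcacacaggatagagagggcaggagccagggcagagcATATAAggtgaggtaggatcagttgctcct
Hbb-bt, chr7:103813924-103814173, minus strand: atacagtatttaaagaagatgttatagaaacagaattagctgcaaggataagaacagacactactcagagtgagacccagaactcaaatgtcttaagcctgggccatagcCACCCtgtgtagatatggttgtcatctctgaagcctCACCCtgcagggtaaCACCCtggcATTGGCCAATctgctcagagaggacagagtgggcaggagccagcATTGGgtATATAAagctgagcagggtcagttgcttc
Alas2, chrX:150547167-150547416, plus strand: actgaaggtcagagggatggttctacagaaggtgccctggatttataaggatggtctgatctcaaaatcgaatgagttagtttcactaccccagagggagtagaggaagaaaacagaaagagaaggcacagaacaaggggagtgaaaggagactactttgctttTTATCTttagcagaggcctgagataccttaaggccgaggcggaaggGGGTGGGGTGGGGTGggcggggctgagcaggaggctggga

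Counted over the whole windows, Hba-a1 and Hba-a2 each held 1 GATA word, 2 CACCC words, 1 CCAAT word and 1 ATATAA word, and their windows shared an unbroken run of 297 bases. Hbb-bs held 1 of each word. Hbb-bt held 3 CACCC words, 3 CCAAT words and 1 ATATAA word and no GATA word, and its longest run in common with Hbb-bs was 14 bases. In Alas2 the 3 CACCC words appear on the opposite strand as GGGTG, beside 1 GATA word, and there was neither a CCAAT nor an ATATAA word. Epor and Klf1 had 1 GATA word and 2 CACCC words each, and no GATA word was found in either window of Tfrc. Of all 32817 promoter windows, 29.8% held a GATA word, 57.5% CACCC, 37.4% CCAAT and 9.8% ATATAA, and 254 windows (0.77%) held all 4 kinds. These matches describe letters and not bound sites.

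None of the 9 genes differed between EBM and CBM beyond the spread of the libraries. In the quasi-likelihood fit of edgeR, the Benjamini-Hochberg adjusted p ran from 0.901 to 0.997 and 0 of 9 were called, where 0 of all 13352 genes tested (0%) were called. At an unadjusted p under 0.05, 0 of the 9 passed beside 7.91% of all genes, with 4.01% higher and 3.90% lower in EBM. DESeq2 called 0 of the 9, each at an adjusted p of 0.999, and 1.39% of the 12619 genes it adjusted. The CPM of the regions overlapped for all 9, whereas 7.47% of all genes were higher in every EBM library and 7.65% lower in every EBM library. The fitted value was higher in EBM for 2 genes, Hba-a2 and Hbb-bs, and lower for 7, where 49.6% of all genes tested were lower. Of these 7, all but Epor turned to higher in EBM when CBM2 was left out. An exact two-sided permutation test over the 20 relabellings of the 6 libraries cannot go below p = 0.1, and it gave 0.4 or more for every member.

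**Figure D1:**
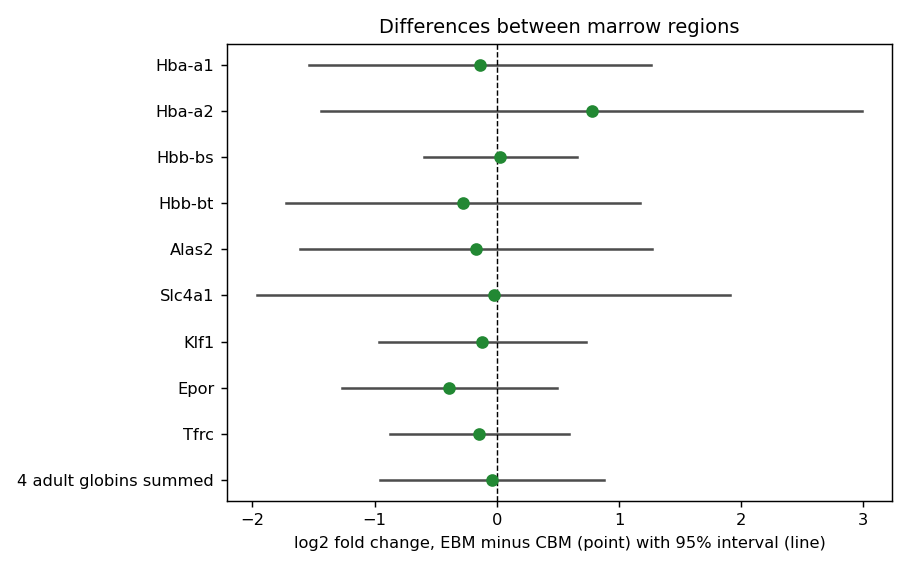
Log2 fold change of each gene between regions (points, EBM minus CBM) with its 95% interval from edgeR (lines), and the 4 adult globins summed in the lowest row. All intervals include 0 (dashed line), from the narrowest for Hbb-bs (-0.60 to 0.65) to the widest for Hba-a2 (-1.44 to 2.99).

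By the deposited counts, Hba-a1 and Hbb-bs were among the most abundant transcripts of these libraries, and Hba-a2 and Hbb-bt were not. The copies of a family share sequence, and how reads matching both were counted is not given. The levels and places of the single globin genes are therefore uncertain. In TPM, a level corrected for gene length, Hba-a1 averaged 5825 over the 6 libraries and ranked between place 4 and place 37 of all genes, and Hbb-bs averaged 4507 and ranked between place 11 and place 34. Slc4a1 (691 TPM), Hba-a2 (601 TPM), Hbb-bt (399 TPM) and Klf1 (331 TPM) followed, with Hba-a2 between place 87 and place 1923 and Hbb-bt between place 143 and place 980. Tfrc (199 TPM), Epor (194 TPM) and Alas2 (112 TPM) were the lowest of the 9. Neighbours in this order overlapped over the libraries, except that every library had more Hbb-bs than any had Slc4a1.

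Hba-a1 (ENSMUSG00000069919, chr11:32283511-32284465, plus strand) encodes an adult alpha globin chain. Its level was 639 CPM in CBM1, 3051 in CBM2 and 1199 in CBM3, and 808 CPM in EBM1, 1549 in EBM2 and 2078 in EBM3. CBM2 was the highest library and CBM1 the lowest, 4.78-fold apart, so the whole range of the gene lay inside CBM. The means were 1630 ± 1262 CPM (SD, n = 3) in CBM and 1478 ± 638 CPM (SD, n = 3) in EBM, and the log2 fold change was -0.14 (SE 0.59, 95% interval -1.54 to 1.26, edgeR adjusted p = 0.989). Without CBM2 the value turned to 0.69, and without EBM1 to 0.16.

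Hba-a2 (ENSMUSG00000069917, chr11:32296489-32297298, plus strand), the second adult alpha globin gene, spread more widely than any other member. It stood at 19.6, 223 and 54.3 CPM in CBM1, CBM2 and CBM3 and at 66.4, 111 and 333 CPM in EBM1, EBM2 and EBM3. EBM3 was 16.9-fold above CBM1, with CBM2 in between, and the regions overlapped. The fitted difference was 0.78 (SE 0.93, 95% interval -1.44 to 2.99, edgeR adjusted p = 0.93), and without EBM3 it was -0.17. The alpha genes share sequence: 73.1% of the stretches of 150 bases in the Hba-a2 transcript occur in that of Hba-a1, and 57.0% the other way. How reads matching both were counted is not given in the sources used here, so the split between the copies is uncertain. Their sum does not depend on that split, but it would be too low if such reads were dropped.

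Hbb-bs (ENSMUSG00000052305, chr7:103826534-103828096, minus strand), an adult beta globin gene, was the flattest of the 9. Its level was 1117, 1434 and 808 CPM in CBM1, CBM2 and CBM3, and 1279, 1338 and 807 CPM in EBM1, EBM2 and EBM3. CBM3 and EBM3 were the low libraries, and the highest was only 1.78-fold above the lowest. The region means, 1120 ± 313 CPM for CBM beside 1141 ± 291 CPM for EBM (SD, n = 3 each), gave a log2 fold change of 0.03 (SE 0.26, 95% interval -0.60 to 0.65, edgeR adjusted p = 0.996). Leaving out CBM3, EBM1 or EBM2 turned it to -0.16, -0.06 or -0.10.

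Hbb-bt (ENSMUSG00000073940, chr7:103812524-103813996, minus strand), the other adult beta globin gene, was led by a single library. CBM1, CBM2 and CBM3 held 53.1, 211 and 37.8 CPM, and EBM1, EBM2 and EBM3 held 81.3, 94.4 and 73.1 CPM. CBM2 was 5.57-fold above CBM3, and the EBM libraries lay close together between them, with an SD of 10.7 CPM against 95.6 CPM in CBM. The log2 fold change was -0.28 (SE 0.61, 95% interval -1.72 to 1.17, edgeR adjusted p = 0.98), and without CBM2 it was 0.87 (adjusted p = 0.366). Of the 150-base stretches of Hbb-bt, 50.7% occur in Hbb-bs, and 45.6% the other way.

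Summed over the 4 adult globins, the libraries held 1829, 4919 and 2099 CPM in CBM1, CBM2 and CBM3 and 2235, 3093 and 3291 CPM in EBM1, EBM2 and EBM3. CBM2 was again the highest, and the EBM libraries fell inside the range of CBM. CBM averaged 2949 ± 1712 CPM and EBM 2873 ± 561 CPM (SD, n = 3 each), with a log2 fold change of -0.04 (SE 0.39, 95% interval -0.95 to 0.88, edgeR adjusted p = 0.996). Without CBM2 it turned to 0.55 and without EBM1 to 0.12, neither called. The alpha genes together spanned 658 to 3274 CPM, a range of 4.97-fold, whereas the beta genes together spanned only 846 to 1645 CPM, a range of 1.95-fold.

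**Figure D2:**
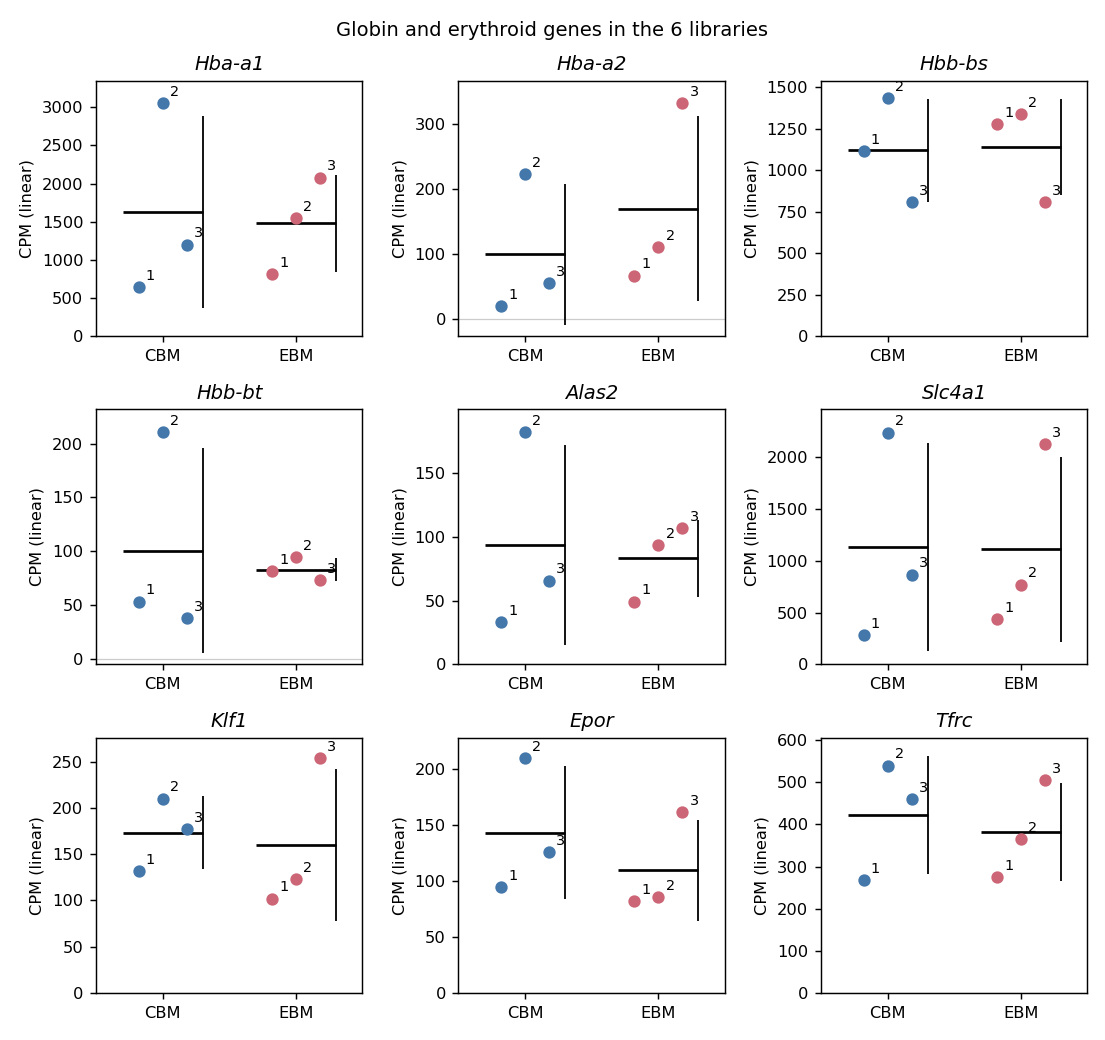
CPM of each gene on a linear axis in the 3 CBM (blue) and 3 EBM (red) libraries, numbered by replicate, with the mean (horizontal line) and SD (vertical line) of each region. The regions overlap in every panel, CBM2 is the highest library in 7 of the 9, and EBM3 in the other two (Hba-a2 and Klf1).

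Alas2 (ENSMUSG00000025270, chrX:150547375-150570638, plus strand) encodes the erythroid form of the enzyme that starts heme synthesis. Its level was 33.1, 182 and 65.6 CPM in CBM1, CBM2 and CBM3, and 49.2, 93.7 and 107 CPM in EBM1, EBM2 and EBM3. The order of the libraries was that of Hba-a1, with CBM2 5.5-fold above CBM1. The log2 fold change was -0.17 (SE 0.60, 95% interval -1.61 to 1.27, edgeR adjusted p = 0.986), and it turned to 0.75 without CBM2 and to 0.10 without EBM1. Alas2 is the only member whose exons overlap those of other genes: 311 bases (12.9% of its exon bases) lie opposite Apex2, which had 219 to 342 counts a library, and whether counting used the strand is not given in the sources used here.

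Slc4a1 (ENSMUSG00000006574, chr11:102348824-102366203, minus strand), the band 3 anion exchanger of the red cell membrane, was well counted in every library and differed widely between libraries. CBM1, CBM2 and CBM3 held 285, 2236 and 866 CPM, and EBM1, EBM2 and EBM3 held 434, 771 and 2125 CPM. Its place by count among all genes ran from 578 in the lowest library to 16 in the highest. CBM2 and EBM3 were nearly level at the top and CBM1 and EBM1 lowest, so each region had a high and a low library, 7.84-fold apart at the extremes. CBM averaged 1129 ± 1001 CPM and EBM 1110 ± 896 CPM (SD, n = 3 each), and the log2 fold change was -0.02 (SE 0.81, 95% interval -1.96 to 1.91, edgeR adjusted p = 0.997). Without CBM2 it was 0.95, and without EBM1 or EBM2 it was 0.36 or 0.18.

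Klf1 (ENSMUSG00000054191, chr8:84901928-84905291, plus strand), the factor that drives adult globin and many other erythroid genes, varied less than Alas2, Slc4a1 or the alpha globins. It stood at 132, 210 and 178 CPM in CBM1, CBM2 and CBM3 and at 102, 124 and 254 CPM in EBM1, EBM2 and EBM3. EBM3 was highest and EBM1 lowest, 2.49-fold apart. The log2 fold change was -0.12 (SE 0.36, 95% interval -0.96 to 0.73, edgeR adjusted p = 0.984). Its sign turned without CBM2 (0.05), EBM1 (0.12) or EBM2 (0.03).

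Epor (ENSMUSG00000006235, chr9:21958897-21963506, minus strand) encodes the receptor for erythropoietin. CBM1, CBM2 and CBM3 held 94.6, 209 and 125 CPM, and EBM1, EBM2 and EBM3 held 81.8, 85.2 and 161 CPM. CBM2 and EBM3 were the high libraries, and EBM1 and EBM2 lay just under CBM1. Averages of 143 ± 59.4 CPM for CBM beside 109 ± 45.0 CPM for EBM (SD, n = 3 each) gave a log2 fold change of -0.39 (SE 0.37, 95% interval -1.27 to 0.49, edgeR adjusted p = 0.901), the lowest p of the 9. It was the only member whose value stayed below 0 whichever library was left out, down to -0.01 without CBM2.

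Tfrc (ENSMUSG00000022797, chr16:32608920-32632794, plus strand), the receptor for transferrin-bound iron, spanned 2.01-fold. Its level was 269, 539 and 459 CPM in CBM1, CBM2 and CBM3 and 276, 366 and 505 CPM in EBM1, EBM2 and EBM3. CBM1 and EBM1 were lowest and CBM2 and EBM3 highest, as for Slc4a1, over a narrower range. The means were 422 ± 139 CPM and 382 ± 116 CPM (SD, n = 3 each), with a log2 fold change of -0.14 (SE 0.31, 95% interval -0.87 to 0.59, edgeR adjusted p = 0.98). It turned to 0.07 without CBM2 and to 0.04 without EBM1.

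Ratios of counts within a library do not depend on its depth, and they were taken as a description. The ratio of alpha to beta globin counts was 0.563, 1.99 and 1.48 in CBM1, CBM2 and CBM3 and 0.643, 1.16 and 2.74 in EBM1, EBM2 and EBM3, a spread of 4.87-fold. Beta globin counts thus exceeded alpha globin counts in CBM1 and EBM1 and fell below them in the other 4 libraries. These counts are not corrected for gene length, and how reads shared between copies were counted is not given. Which chain was more abundant is therefore uncertain. The ratio of Slc4a1 to beta globin spread 9.91-fold, from 0.244 in CBM1 to 2.41 in EBM3. Slc4a1 and alpha globin kept closer to each other, with ratios of 0.433 to 0.882.

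Alas2 and alpha globin kept nearly the same ratio in every library. It was 0.0502, 0.0555 and 0.0524 in CBM1, CBM2 and CBM3 and 0.0563, 0.0565 and 0.0443 in EBM1, EBM2 and EBM3, a spread of 1.28-fold, while alpha globin spread 4.97-fold and Alas2 5.5-fold. Klf1 to alpha globin was highest in CBM1 (0.201) and lowest in CBM2 (0.0642). Klf1, Epor and Tfrc kept together more closely than Klf1 and alpha globin, but less closely than Alas2 and alpha globin. There were 0.635 to 0.996 Epor counts (1.57-fold) and 1.99 to 2.96 Tfrc counts (1.49-fold) per Klf1 count. The members therefore fell into 3 kinds by their values: alpha globin with Alas2 and Slc4a1, which ranged widely, Klf1 with Epor and Tfrc, which ranged 2.01-fold to 2.56-fold, and Hbb-bs, which was flat and low in CBM3 and EBM3. Hbb-bt, led by CBM2, stood apart from these. The grouping was made after the values were seen. Which of these counts came from residual erythroid cells and which from leukemia cells was not tested, and in bulk RNA fewer cells of a type and less RNA per cell cannot be told apart.

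**Figure D3:**
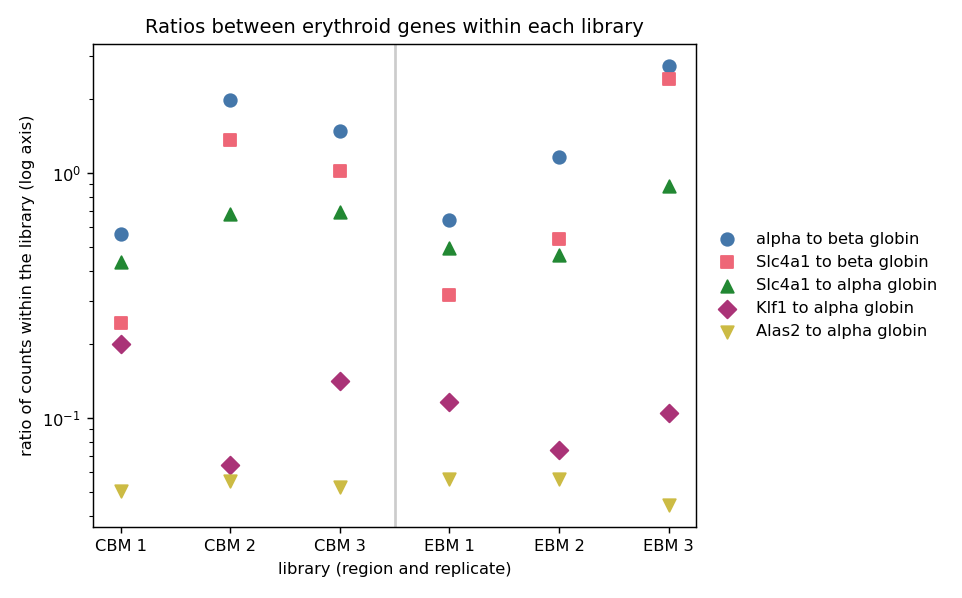
Ratios of counts between members within each library, on a log axis, for the 3 CBM and the 3 EBM libraries. The ratio of Alas2 to alpha globin lies between 0.0443 and 0.0565, whereas alpha to beta globin runs from 0.563 to 2.74 and Slc4a1 to beta globin from 0.244 to 2.41.

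The copies within a family also changed their shares. Hbb-bt made up 4.54% of beta globin counts in CBM1 (95% exact Clopper-Pearson interval 4.26 to 4.83), 12.8% in CBM2 (12.4 to 13.2) and 4.47% in CBM3 (4.16 to 4.79), and 5.98%, 6.59% and 8.31% in EBM1, EBM2 and EBM3. CBM2 lay outside the interval of every other library. Hba-a2 made up 2.98% of alpha globin counts in CBM1 (2.68 to 3.31), 6.82% in CBM2 and 4.34% in CBM3, and 7.59%, 6.68% and 13.8% (13.5 to 14.2) in EBM1, EBM2 and EBM3. The intervals count reads, which PCR copies from fewer molecules, so they cover counting error alone, and the shares carry the uncertainty of how shared reads were counted.

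Embryonic and minor globin genes were almost silent. Of 11 other globin genes and partners listed, 8 had a row. The adult beta globin names Hbb-b1 and Hbb-b2 and the partner Ahsp were not matched. Hba-x and Hbb-bh0 were at 0 in all 6 libraries, and 2 genes were tested, with a median log2 fold change of -0.63. Hbq1b, a theta globin gene of the alpha cluster, was at 0.341, 4.79 and 1.19 CPM in CBM1, CBM2 and CBM3 and at 1.33, 2.12 and 1.86 CPM in EBM1, EBM2 and EBM3, lowest and highest in the same libraries as Hba-a1. Hbb-bh2, at 0.257 to 1.65 CPM, was lowest in EBM3 and highest in CBM1, with a log2 fold change of -1.0 that did not pass (edgeR adjusted p = 0.697), although every EBM library lay below every CBM library. The embryonic gene Hbb-y reached at most 0.223 CPM.

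The wider erythroid program was read from lists of known genes, and none of their genes passed the adjusted threshold of edgeR. Over all genes tested the median log2 fold change was 0.0017, and 49.6% of the genes were lower in EBM. Among 15 transcription factors listed for erythroid cells, 4 were higher and 11 lower in EBM (median -0.11). Gata2 (0.29) and Spi1 (0.19), which are not restricted to erythroid cells, were among the higher genes. Only 1 of the 15 was lower at an unadjusted p under 0.05 in edgeR, beside 3.90% of all genes. This was Nfe2, a partner in the factor that binds globin enhancers, at 138, 151 and 134 CPM in CBM1, CBM2 and CBM3 and 89.1, 92.9 and 115 CPM in EBM1, EBM2 and EBM3. All EBM libraries lay below all CBM libraries, with a log2 fold change of -0.51 (SE 0.12, edgeR adjusted p = 0.33). Tal1, a core member of the GATA1 complex, also did not overlap between regions (log2 fold change -0.33, SE 0.14, edgeR adjusted p = 0.632), and Zbtb7a, a repressor of fetal globin, had -0.31 (edgeR adjusted p = 0.661). Thus 2 of 15 were lower in every EBM library, beside the 7.65% of all genes.

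Of 15 genes of heme synthesis and mitochondrial iron import, 3 were higher and 12 lower in EBM (median -0.10), beside 49.6% of all genes lower. Of these, 0 of 15 were at an unadjusted p under 0.05, and no gene was without overlap. CBM2 was the highest library for 8 of the 15, and whether the directions hold without CBM2 was not tested. The smallest p-values were those of Alas1, the housekeeping form of the first enzyme (-0.25 on the log2 scale, edgeR adjusted p = 0.789), Hmox1, which breaks heme down (-0.68, adjusted p = 0.923), and Cpox, a late enzyme of the pathway (-0.16, adjusted p = 0.972). Of 19 membrane and skeleton genes, 18 were tested, 3 higher and 15 lower (median -0.13), again with 0 at an unadjusted p under 0.05. CBM2 was the highest library for 14 of these 18, and the directions without it were not tested here either. The urea transporter Slc14a1 (-0.38, edgeR adjusted p = 0.757), the Kx antigen gene Xk (-0.41, adjusted p = 0.81) and the Rh-associated glycoprotein Rhag (-0.25, adjusted p = 0.877) had the smallest p-values of that list.

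Among 15 enzymes and late erythroid genes, 6 were higher and 9 lower (median -0.07). Trim58, a ubiquitin ligase of late erythroblasts, was at 26.9, 35.2 and 20.6 CPM in CBM1, CBM2 and CBM3 and 16.6, 15.5 and 13.4 CPM in EBM1, EBM2 and EBM3. It did not overlap between regions. Its log2 fold change of -0.86 (SE 0.21) had an edgeR adjusted p of 0.343 and a DESeq2 adjusted p of 0.0293. Only DESeq2 called it, as it did 1.39% of the genes it adjusted. Car1, a carbonic anhydrase of early erythroid cells, was at 2650, 2481 and 2749 CPM in CBM1, CBM2 and CBM3 and 3053, 3051 and 2770 CPM in EBM1, EBM2 and EBM3, a narrow range without overlap (0.17, edgeR adjusted p = 0.725). Its mean of 6835 TPM was above that of Hba-a1. Bnip3l, a mitophagy receptor of maturing red cells, had -0.07 (edgeR adjusted p = 0.944).

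In erythropoietin signalling, 9 of 12 genes were higher in EBM and 3 lower (median 0.03). Cish, a feedback inhibitor induced by STAT5, was the only 1 of the 12 at an unadjusted p under 0.05 in edgeR, beside 7.91% of all genes. It stood at 96.1 to 100 CPM in CBM and 148 to 157 CPM in EBM. Its log2 fold change was 0.65 (SE 0.08, edgeR adjusted p = 0.115, DESeq2 adjusted p = 5.88e-07). Socs3, a related inhibitor, stayed at 0.0992 to 2.39 CPM (1.58, edgeR adjusted p = 0.717), and the survival gene Bcl2l1 had -0.22 (adjusted p = 0.79). Of 15 genes of iron uptake, storage and export, 13 were tested, 7 higher and 6 lower (median 0.01), with 0 at an unadjusted p under 0.05. The ferritin chains Ftl1 (0.25, edgeR adjusted p = 0.696) and Fth1 (0.16, adjusted p = 0.81) and the iron sensor Fbxl5 (-0.12, adjusted p = 0.856) had the smallest p-values there.

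Most listed erythroid genes were highest in the same libraries as the members. CBM2 or EBM3 was the highest library for 18 of 18 membrane genes, for 13 of 15 heme genes and for 13 of 15 enzymes and late genes. The same held for 14 of 15 transcription factors, Gata2 and Spi1 included. Over all 13352 genes the count was 6029 (45.2%). CBM1 or EBM1 was the lowest for 17 of 18 membrane genes and 12 of 15 heme genes, beside 35% of all genes. CBM2 or EBM3 was also highest for 10 of 13 genes of iron uptake, storage and export, many of them not restricted to erythroid cells. It was so for 7 of 12 granulocyte markers and for only 2 of 12 genes of erythropoietin signalling. These libraries were singled out after the values were seen, so the counts are a description. The median of highest over lowest library was 4.78 for the 9 members, 2.21 for the membrane genes, 2.09 for the heme genes, 1.70 for the transcription factors and 1.55 for all genes tested. It was larger than that of the members for the other globin genes (10.2, 2 tested) and for the macrophage (5.98), mast cell (12.0), lymphocyte (15.6) and granulocyte (53.7) markers.

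**Figure D4:**
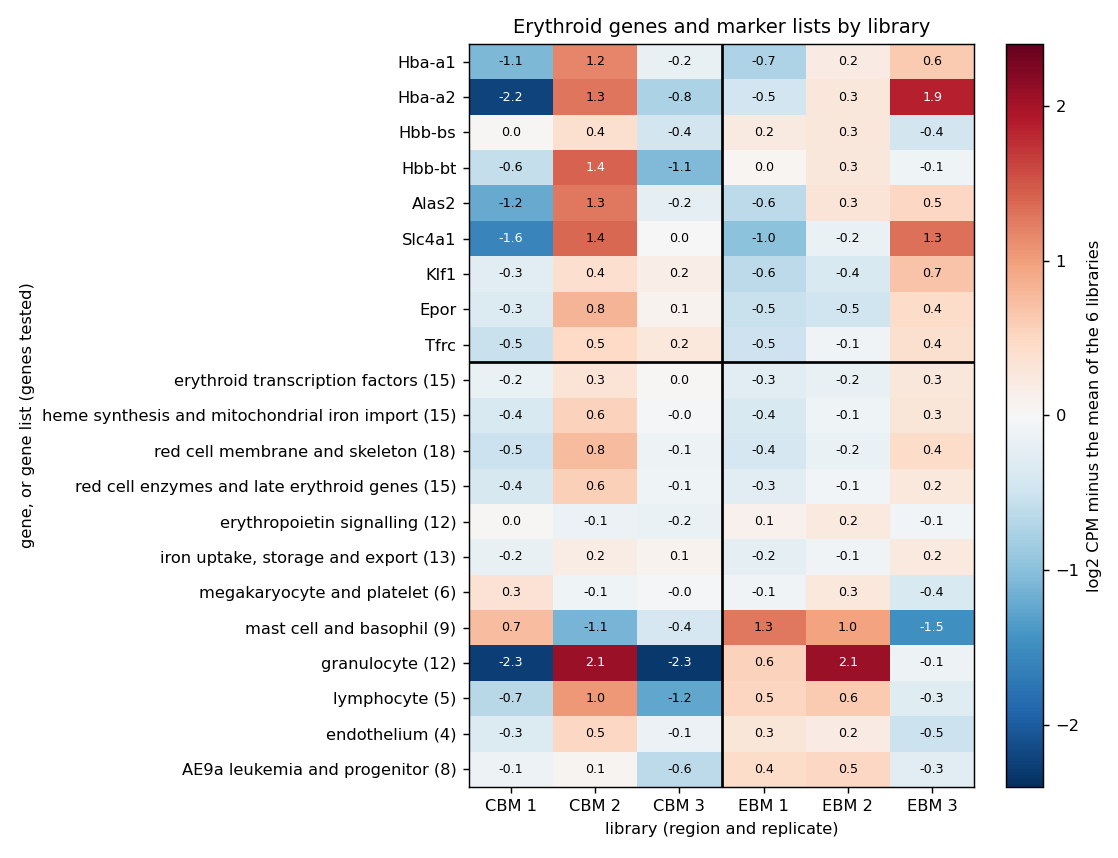
Log2 CPM of each member, and the mean over the tested genes of each list (numbers in brackets), in each library after subtracting its mean over the 6 libraries, with red above and blue below that mean. The membrane list reads 0.752 in CBM2 and 0.437 in EBM3 against -0.523 in CBM1, and the mast cell list runs the other way, with -1.11 in CBM2 and -1.47 in EBM3.

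Markers of other cells that the samples could hold were set beside these genes. The 12 markers of macrophages of the erythroblastic island, which nurse erythroblasts, summed to 2.73 to 8.74 CPM. Hmox1 (0.771 to 4.95 CPM) and Vcam1 (0.341 to 1.89 CPM) led this sum. C1qb, next to Hmox1 by TPM, was at 0.129 to 0.557 CPM. Adgre1, which encodes the defining marker F4/80, was at no more than 0.579 CPM and Siglec1 at no more than 0.129 CPM. Only 2 of the 12 were tested (1 higher and 1 lower, median 0.08), and the list was highest in CBM2. Markers of bone and stroma summed to 7.51 to 13.0 CPM, nearly all from Runx2, with Bglap at no more than 0.158 CPM and 3 of 12 at 0 throughout, 1 tested and none higher (-0.23). Lymphocyte markers summed to 11.9 to 26.9 CPM (5 tested, 3 higher and 2 lower, median 0.03), led by Cd79b and Jchain. Endothelial markers summed to 83.5 to 103 CPM (4 tested, 1 higher and 3 lower, median -0.11), almost all from Egfl7 beside Esam at 2.48 to 5.41 CPM, with Emcn and Cldn5 at 0.

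Granulocyte markers varied most between libraries. The 12 markers summed to 11.2, 275 and 10.8 CPM in CBM1, CBM2 and CBM3 and 97.4, 243 and 50.2 CPM in EBM1, EBM2 and EBM3, with 9 fitted above and 3 below CBM (median 0.24), 0 at an unadjusted p under 0.05. S100a9 and S100a8, the most abundant, were at 59.7 and 57.1 CPM in CBM2 and at 0.744 and 0.595 CPM in CBM3. Hbb-bt stood in the same order of the 6 libraries as this sum, from CBM3 through CBM1, EBM3, EBM1 and EBM2 to CBM2. This match was picked out after the values were seen, and no other member had that order. The Hbb-bt counts also depend on how reads shared with Hbb-bs were counted. EBM2, close to CBM2 in granulocyte markers, had 94.4 CPM of Hbb-bt against 211 CPM. CBM2 led both in granulocyte markers and in 7 of the 9 members. EBM3, the other library high in Slc4a1, had 50.2 CPM of granulocyte markers. The part of these markers in the result was not tested.

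**Figure D5:**
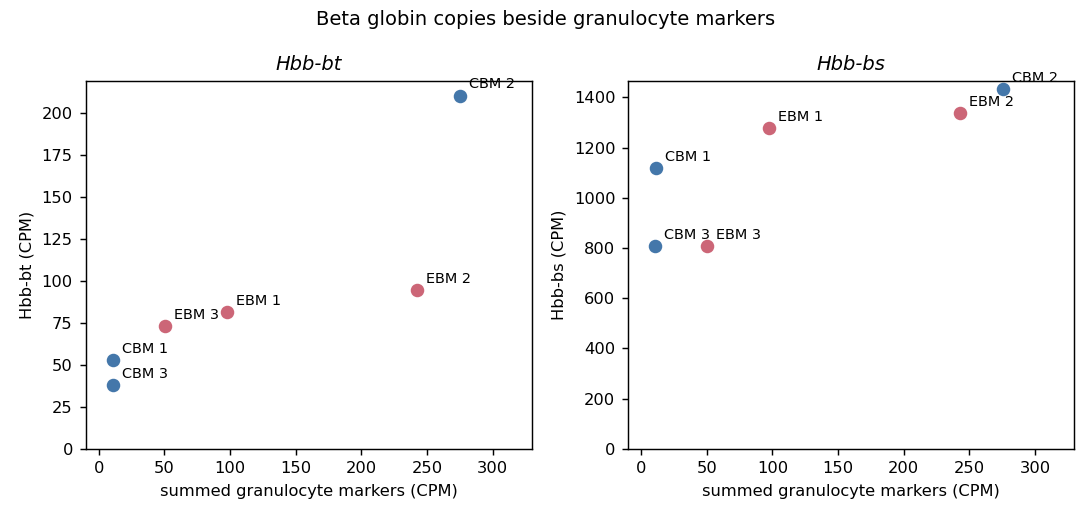
CPM of Hbb-bt (left) and Hbb-bs (right) against the summed CPM of 12 granulocyte markers in the 6 libraries, CBM in blue and EBM in red. The genes set side by side were chosen after the values were seen. Hbb-bt is lowest in CBM3 and CBM1, which hold 10.8 and 11.2 CPM of the markers, and highest in CBM2, while EBM2 with 243 CPM of the markers stays at 94.4 CPM of Hbb-bt.

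Mast cell and basophil markers were lowest in the libraries highest in Slc4a1, a match picked out after the values were seen. CBM2 was the lowest library for 3 and EBM3 for 6 of the 9 tested, beside 2751 and 3061 of all 13352 genes. The 12 markers summed to 3594, 1884 and 2811 CPM in CBM1, CBM2 and CBM3 and 3886, 3780 and 2156 CPM in EBM1, EBM2 and EBM3. Of these, 9 were tested, 6 higher and 3 lower (median 0.54). At an unadjusted p under 0.05 in edgeR 1 was higher, beside 4.01% of all genes. The libraries with the most, EBM1, EBM2 and CBM1, were those with the least Slc4a1. Ms4a2 and Il1rl1, the most abundant, stayed within 652 to 1051 and 762 to 1301 CPM in every library. The protease gene Cpa3, named after its values were seen, ranged further, from 224 CPM in CBM1 to 3.74 CPM in CBM2 and 5.21 CPM in EBM3. Megakaryocyte and platelet markers summed to 103 to 186 CPM (6 tested, 3 higher and 3 lower, median -0.16). Of these, 2 were lower at an unadjusted p under 0.05 in edgeR, beside 3.90% of all genes. Gp5, a platelet glycoprotein, was at 130, 94.3 and 130 CPM in CBM1, CBM2 and CBM3 and at 61.3, 57.0 and 79.8 CPM in EBM1, EBM2 and EBM3 (-0.84, edgeR adjusted p = 0.275, DESeq2 adjusted p = 0.00969). Treml1, another platelet receptor, was at 6.43 to 7.05 CPM in CBM and 7.57 to 10.2 CPM in EBM, without overlap (0.32, edgeR adjusted p = 0.73). Of the 12 leukemia and progenitor genes 8 were tested, 6 higher and 2 lower (median 0.19), with Adgrg1 (0.19, edgeR adjusted p = 0.687) and Runx1 (-0.04, adjusted p = 0.993) the most abundant.

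The genes whose log2 CPM followed the summed globins most closely over the 6 libraries were Gnal (Pearson r = 0.997), Gm2810 (0.995), Fbxo30 (0.994), Dsn1 (0.992) and Prpf4b (0.987). For Tfrc they were Supt16 (0.997), Susd2 (0.995), Htra2 (0.994), Cpox (0.994) and Tsn (0.994). Of these 10 genes only Cpox, of the heme pathway, is in the erythroid lists. With 6 libraries and 13352 genes such values describe these libraries only.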

How the data were processed

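RNA-seq had been done on AE9a leukemia cells of CBM and EBM, with 3 directional libraries of rRNA-depleted RNA from each region. The deposited table holds raw counts per gene and a gene length, not normalized by the authors. The submitters' processing notes name HISAT2 2.0.5 and mm10, and the counting tool, its strand setting and its treatment of reads with several matches are not given in the sources used here. Of the identifiers, 98.3% had the same coordinates in GENCODE M21.

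Genes were kept by filterByExpr, scaled by TMM (factors 0.948 to 1.04) and tested with the quasi-likelihood F-test of edgeR 4.0.16 in R 4.3.3 on all 13352 genes, with Benjamini-Hochberg adjusted p under 0.05 as a call. A standard error is the absolute log2 fold change divided by the square root of F. TPM was computed from the deposited lengths. Single values were tested by exact permutation over 20 relabellings, and log2 CPM took a prior count of 2. The closest replicate libraries differed by more than sampling noise. DESeq2 1.42.0 and the other alternatives are given in the closing section.

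The members and the gene lists were chosen with earlier results of these data known. The genes named are the 9 members, in each pathway list up to 3 genes with the smallest p, in each marker list the 2 with the highest TPM, and the 5 genes most like the summed globins or Tfrc. Other genes were named after their values were seen.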

Additional observations from a re-analysis of the deposited data

How the results depend on the processing

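With 3 libraries a region, members spread up to 16.9-fold. The widest 95% interval of a member, for Hba-a2, reached from -1.44 to 2.99, so a moderate difference in either direction could not be detected there. The narrowest, for Hbb-bs, reached from -0.60 to 0.65, so a smaller difference could still be missed. No member was called under any alternative run. Over all genes edgeR called 0, DESeq2 called 175, and edgeR on every gene with at least 1 count called 40. Of the alternatives that keep all libraries, 54 values kept their direction and call, 6 changed sign and 2 counts moved by more than 1.5 times. Summing the beta globins alone gave 0.0048 in place of -0.04. Scaling by RLE size factors, and leaving the globins out of the library sizes, turned no sign. Libraries share only a replicate number: same-numbered CBM and EBM libraries had correlations of 0.676, -0.204 and 0.203 in their deviations from the group means, and not every library correlated best with its own number. With the replicate number as a block, no member was called, and the log2 fold change became 0.0601 for Hba-a1, 0.15 for Hbb-bt, 0.11 for Alas2, 0.16 for Slc4a1 and 0.0928 for the summed globins, with adjusted p-values of 0.957 to 0.98.

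Leaving out 1 library at a time gave 0 members and 0 genes called each time and turned the sign of 19 values. The log2 fold change ranged from -0.52 to 0.69 for Hba-a1, -0.17 to 2.20 for Hba-a2, -0.16 to 0.25 for Hbb-bs, -0.66 to 0.87 for Hbb-bt, -0.57 to 0.75 for Alas2, -0.91 to 0.95 for Slc4a1, -0.63 to 0.12 for Klf1, -0.78 to -0.01 for Epor, -0.41 to 0.0723 for Tfrc and -0.29 to 0.55 for the summed globins. Each highest value came without CBM2, except for Klf1, where it came without EBM1. The cause was not tested.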
